A study of Mus musculus with 6 samples.

Results

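The grainyhead-like genes Grhl1, Grhl2 and Grhl3 and the ovo-like genes Ovol1 and Ovol2, transcription factor genes of epithelial barriers, were examined in embryonic mouse bladders (E14.5). They were taken as the array features whose single annotated gene symbol was 1 of these 5 names, and each gene had 1 such feature among the 19938 genes tested. The study asked what the developing urothelium, the epithelium that lines the bladder, requires of Klf5, a zinc-finger transcription factor of epithelia. It compared 3 samples from Klf5-deleted embryos, labelled Klf5 ∆/∆, with 3 from control embryos, labelled Klf5+/+ShhGfpCre+. The control label names the ShhGfpCre allele, which makes Cre recombinase in cells that express Shh, and the Klf5-deleted label names no Cre, so which allele made the deletion was not taken from the labels. Each sample pooled 2 bladders. The labels name the source as urothelium, but the protocol describes whole bladders, and the arrays read transcripts of muscle, connective tissue, vessels and blood as well. In such bulk RNA, fewer epithelial cells and less RNA per epithelial cell cannot be told apart.

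Grhl proteins, relatives of the Drosophila factor grainy head, bind DNA as dimers and activate genes of cell junctions and of the outer barrier of epithelia. In mice, loss of Grhl3 leaves the skin barrier and the neural tube defective and impairs the terminal differentiation of the urothelium, Grhl2 sustains the E-cadherin and claudin genes Cdh1 and Cldn4, and Grhl1 is needed for desmosomes and hair anchoring. Ovol proteins are zinc-finger factors, known mainly as repressors, that hold epithelial cells in the epithelial state. Ovol1 restrains the growth of epidermal progenitors, and Ovol2 represses the mesenchymal regulator Zeb1 and is needed in the placenta, the heart and the neural tube.

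RefSeq promoter windows (GRCm38.p6), which run from 250 bases before to 50 bases after the annotated start, were matched for 3 of the 5 genes: Grhl1, Grhl3 and Ovol2. They are shown because they were the windows at hand, and none was matched for Grhl2 or for Ovol1, which also fell. Grhl1 and Grhl3 fell in the Klf5-deleted bladders, while Ovol2 did not pass the test. Whether the matches relate to these differences was not tested. Each is written 5′ to 3′ on the strand of the gene, and capitals mark matches of CCNCNCCC on either strand, the kind of C-rich box that Krüppel-like factors bind. The windows lie at chr4:135573583-135573882 (minus strand) for Grhl3, at chr12:24572037-24572336 (plus strand) for the first of 2 windows of Grhl1, and at chr2:144331313-144331612 (minus strand) for Ovol2.
Grhl3: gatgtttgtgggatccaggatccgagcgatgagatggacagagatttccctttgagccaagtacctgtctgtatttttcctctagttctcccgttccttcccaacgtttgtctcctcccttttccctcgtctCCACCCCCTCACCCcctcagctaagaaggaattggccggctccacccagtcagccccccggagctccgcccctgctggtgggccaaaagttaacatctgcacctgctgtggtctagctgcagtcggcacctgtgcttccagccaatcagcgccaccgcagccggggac
Grhl1: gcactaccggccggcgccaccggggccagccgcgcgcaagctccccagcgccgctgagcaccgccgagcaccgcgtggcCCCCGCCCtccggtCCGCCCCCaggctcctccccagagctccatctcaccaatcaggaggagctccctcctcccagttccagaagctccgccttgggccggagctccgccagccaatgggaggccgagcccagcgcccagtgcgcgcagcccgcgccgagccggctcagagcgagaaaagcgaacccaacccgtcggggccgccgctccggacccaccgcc
Ovol2: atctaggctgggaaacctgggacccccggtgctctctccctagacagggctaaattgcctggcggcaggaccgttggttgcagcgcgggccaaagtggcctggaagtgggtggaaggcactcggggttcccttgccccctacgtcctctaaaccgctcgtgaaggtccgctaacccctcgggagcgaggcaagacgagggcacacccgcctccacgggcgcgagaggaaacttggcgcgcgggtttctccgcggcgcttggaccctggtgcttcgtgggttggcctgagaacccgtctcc

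The Grhl3 window held 2 overlapping matches and the Grhl1 window 2 separate ones, and no match was found in the Ovol2 window or in the second Grhl1 window. Such boxes are common: 49.5% of the 32851 RefSeq windows held at least 1 and 30.6% at least 2. The windows differ in base composition, with 58.3% G and C for Grhl3, 75.3% for Grhl1 and 65.7% for Ovol2. No match of AACNNGTT (grainyhead-like, held by 4.2% of windows) or of CCGTTA (Ovol-like, held by 2.76%) was found in any of the 4 windows, on either strand. These are counts of letters in short windows, and no binding was measured.

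Klf5, the targeted gene, was measured first. Its log2 values were 10.12, 10.34 and 10.23 in Klf5-deleted bladders, against 10.84, 10.63 and 10.97 in control bladders. The groups did not overlap, with a difference of -0.59 (SE 0.10, adjusted p = 0.0381 by limma). The adjusted p was above 0.05 in 8 of 15 alternative settings. Which part of the transcript the feature covers was not analysed here.

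Of the 5 Grhl and Ovol genes, 3 fell in the Klf5-deleted bladders past an adjusted p of 0.05 (Grhl3, Ovol1 and Grhl1), none rose, and Grhl2 and Ovol2 did not pass. Over all 19938 genes, 1.59% fell past that threshold and 0.386% rose, so that 80.5% of the genes past it were lower. That share was 70.2% with each array centred on its median and 52.8% with each array centred on housekeeping genes, and the same 3 Grhl and Ovol genes passed under both centrings. On every one of the 5 features, each Klf5-deleted array read below each control array, which held for 11.8% of all genes. The median difference was -0.55 for the 5 genes, against -0.00993 for all genes. Values are log2 expression values from RMA, on which a difference of 1 is a 2-fold change, and they are compared between groups for 1 feature at a time, since features of different genes do not share a scale. Of the 5 features, only that of Grhl3 read above the array medians (8.43 to 8.50 over the genes tested). Whether signal level affected the sizes of the differences was not tested.

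**Figure D1:**
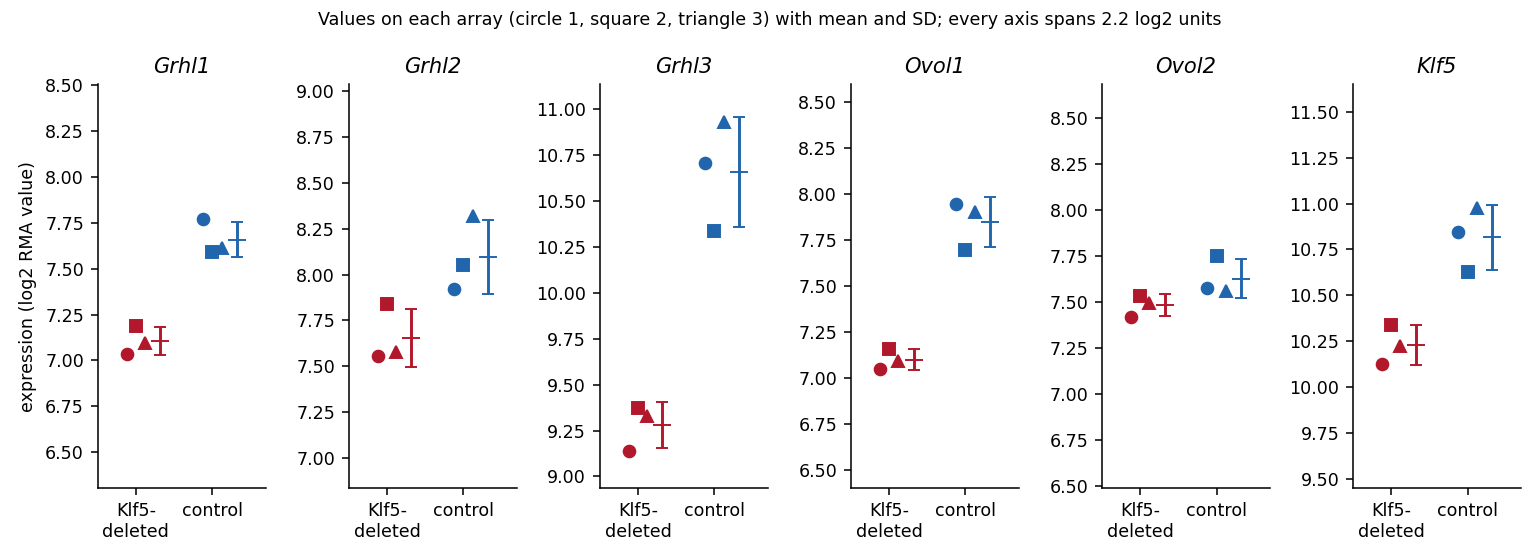
Log2 expression values of the 5 genes and of Klf5 on each array, Klf5-deleted in red at the left and control in blue at the right of each panel, with the group mean and SD beside the points (n = 3 each). Every axis spans the same range. The gap between the groups was widest for Grhl3 (0.963) and narrowest for Ovol2 (0.0236).

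Grhl3 differed most of the 5. It read 9.14, 9.37 and 9.33 in Klf5-deleted bladders, against 10.71, 10.34 and 10.93 in control bladders. Every Klf5-deleted value was at least 0.963 below every control value, while the values spanned 0.234 within the Klf5-deleted group and 0.596 within the control group. The means were 9.28 ± 0.12 and 10.66 ± 0.30 (SD, n = 3 each), a 2.60-fold lower level (log2 difference -1.38, 95% confidence interval -1.73 to -1.03, adjusted p = 0.00597 by limma). Of all genes, 74 fell further and 85 had a smaller p. Among the controls, control 2 was the lowest and control 3 the highest. Grhl3 passed in every fit that left out 1 array. Without control 2 the difference was -1.54 and the adjusted p was 0.000816 by limma, and in the other 5 fits that left out 1 array it lay between -1.42 and -1.24.

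Ovol1, the repressor that in mouse epidermis restrains progenitor growth, read 7.05, 7.16 and 7.09 in Klf5-deleted bladders, against 7.95, 7.70 and 7.90 in control bladders. The Klf5-deleted arrays lay close together, within 0.109, and the lowest control was again control 2. The means were 7.10 ± 0.06 and 7.85 ± 0.13 (SD, n = 3 each), a 1.68-fold lower level (log2 difference -0.75, SE 0.08, adjusted p = 0.00667 by limma). It passed in every fit that left out 1 array, with differences of -0.83 to -0.70.

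Grhl1, the factor of desmosomes and hair anchoring, read 7.04, 7.19 and 7.09 in Klf5-deleted bladders, against 7.77, 7.59 and 7.61 in control bladders. The groups were 0.403 apart, with control 1 the highest array. The means were 7.11 ± 0.08 and 7.66 ± 0.10 (SD, n = 3 each), a 1.47-fold lower level (log2 difference -0.55, SE 0.08, adjusted p = 0.0156 by limma). Its direction held without any 1 array, with differences of -0.59 to -0.50. The call did not: the adjusted p by limma was 0.082 without Klf5-deleted 1, 0.0562 without Klf5-deleted 3 and 0.0537 without control 1.

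Grhl2, the regulator of Cdh1 and Cldn4, read 7.55, 7.84 and 7.58 in Klf5-deleted bladders, against 7.92, 8.05 and 8.32 in control bladders. The highest Klf5-deleted array, Klf5-deleted 2, lay only 0.0835 below the lowest control. The means were 7.66 ± 0.16 and 8.10 ± 0.20 (SD, n = 3 each). The difference of -0.44 (95% confidence interval -0.73 to -0.15) had an adjusted p of 0.15 by limma and did not pass. Its size was near that of Grhl1, but its SE was 0.12, against 0.08 for Grhl1. With any 1 array left out it stayed short of the threshold, with differences of -0.53 to -0.33 and adjusted p of 0.16 to 0.396 by limma.

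Ovol2, the repressor of Zeb1, had the smallest difference. It read 7.42, 7.53 and 7.50 in Klf5-deleted bladders, against 7.57, 7.75 and 7.56 in control bladders. The values barely failed to overlap, and control 2, which was the lowest control for Grhl1, Grhl3 and Ovol1, was the highest for Ovol2. The difference was -0.14 (95% confidence interval -0.32 to 0.03, adjusted p = 0.454 by limma), and -0.08 without control 2. The interval covers no change as well as a fall of 0.32. The mean of 5 placental genes was 7.09, 8.54 and 5.29 in Klf5-deleted bladders, against 5.28, 10.59 and 6.47 in control bladders, highest in control 2. Of these genes, 4 read highest in control 2, but Gzmd read 10.80 in Klf5-deleted 2, against 9.83 in control 2. Tpbpa, a marker of placental spongiotrophoblast, read 8.02, 10.34 and 6.18 in Klf5-deleted bladders, against 6.19, 13.13 and 8.35 in control bladders. Whether placental RNA, a tissue where Ovol2 is active, contributed to the Ovol2 value of control 2 was not tested.

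**Figure D2:**
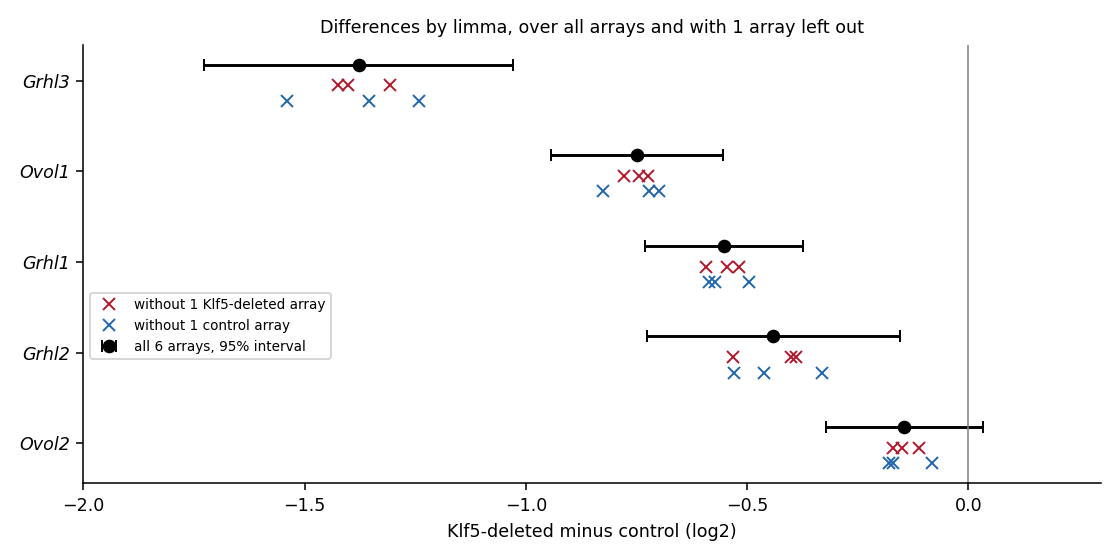
Differences between Klf5-deleted and control bladders (log2) for the 5 genes, in order of size from top to bottom. Black points and bars give limma's difference and 95% interval over all 6 arrays, and crosses the difference with 1 Klf5-deleted array (red) or 1 control array (blue) left out. No left-out array turned a direction, and the interval of Ovol2 alone reaches past 0.

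The 5 genes were then compared with each other, by asking whether the difference between 2 of them was the same on Klf5-deleted and control arrays. The 10 pairs draw on only 5 genes and are not independent, and the share without overlap among all gene pairs was not computed. Of the 10 pairs, 8 did not overlap between the groups. Each of these 8 had an exact permutation p of 0.1 (two-sided, 0.125 after Benjamini-Hochberg adjustment over the 10 pairs), the smallest that 3 arrays against 3 can give, so no pair could pass 0.05. Grhl3, whose feature also read highest of the 5, differed most from the others. Its difference minus that of Ovol2 was -1.23 and minus that of Ovol1 -0.63, while those of Grhl2 and Grhl1 lay 0.94 and 0.83 above that of Grhl3, each without overlap. Between the Ovol genes, the difference of Ovol1 minus that of Ovol2 was -0.60. The groups overlapped for Grhl1 against Grhl2, whose differences were -0.11 apart (exact permutation p = 0.6), and for Grhl2 against Ovol2, -0.30 apart (exact permutation p = 0.2).

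Within the Klf5-deleted group the 5 genes shared an order: Klf5-deleted 1 was the lowest array and Klf5-deleted 2 the highest for all 5, and for Klf5 too. The mean of 13 general epithelial genes, among them the keratin genes Krt7, Krt8, Krt18 and Krt19, followed that order, at 8.86, 9.18 and 9.06 in Klf5-deleted bladders, against 10.26, 10.03 and 10.38 in control bladders. Most of the 13 had that order singly, but not all. Krt7 was highest in Klf5-deleted 1, Prom2 lowest in Klf5-deleted 2, and Cdh1 and St14 highest in Klf5-deleted 3. The share of all genes with that order was not computed. Among the controls, Grhl3 had the same order as this mean, with control 2 lowest and control 3 highest. Arrays of 1 genotype thus differed in the mean of these epithelial genes, and the part of this in each gene's value was not tested.

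Most of the general epithelial genes fell. Of the 13 measured, 10 fell past the threshold and none rose, with a median difference of -1.16. Krt8 differed by -1.77, Krt7 by -1.51, Krt18 by -1.52 and Prom2, a membrane protein of epithelial protrusions, by -1.95. Ap1m2, an adaptor subunit of sorting to the basolateral membrane, and Spint2, a protease inhibitor, fell by 1.07 and 1.08. Epcam, an adhesion protein of epithelial cells, did not pass: it read 8.78, 9.71 and 8.98 in Klf5-deleted bladders, against 9.43, 9.43 and 9.78 in control bladders, and the groups overlapped. Its difference of -0.39 had an adjusted p of 0.521 by limma, so that the epithelial genes themselves differed unequally.

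Set against the mean of these 13 genes on the same array, the 5 factors no longer all read lower. On each array the same value was subtracted from every factor, so the gaps between the factors were unchanged. Grhl3 minus the epithelial mean was 0.19 lower in Klf5-deleted than in control bladders, while the same quantity was higher for Ovol1 (0.44), Grhl1 (0.64), Grhl2 (0.75) and Ovol2 (1.04). For each of the 5 the groups were apart. The epithelial mean itself differed by -1.19, so nearly every gene is higher on this scale, with a median difference of 1.18 over all genes. The share of all genes whose groups were apart on this scale was not computed. Grhl3 was thus the 1 factor of the 5 that differed by more than the mean of the epithelial genes, and the other 4 differed by less. The 13 genes were chosen with their falls known, so these gaps describe the list as much as the factors, and they show unequal change only.

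**Figure D3:**
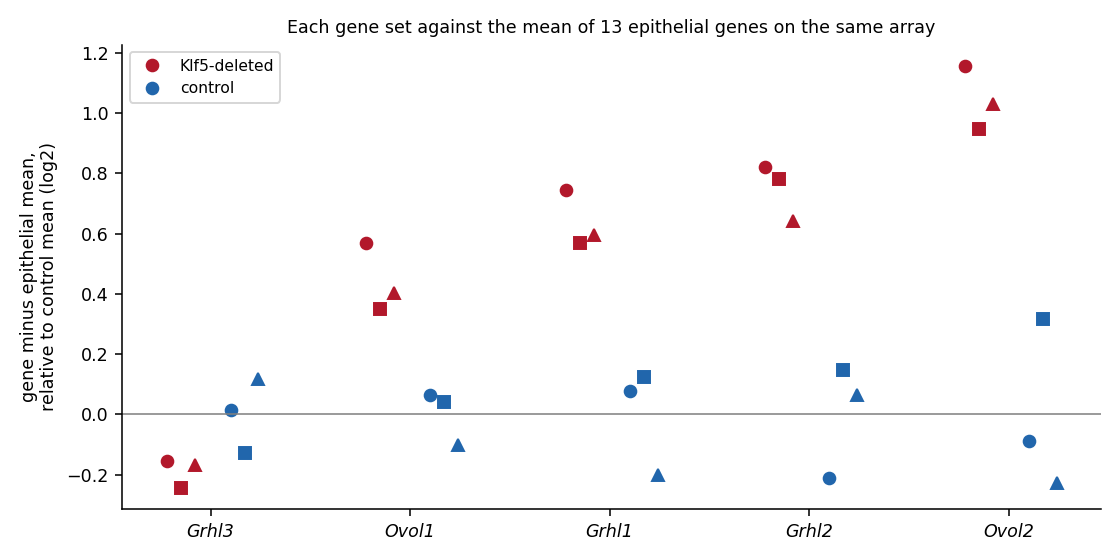
Log2 value of each gene minus the mean of 13 epithelial genes on the same array, shown relative to the control mean of that quantity; Klf5-deleted arrays in red at the left of each gene, control arrays in blue at the right (circle 1, square 2, triangle 3). Grhl3 lies below its controls by 0.19 on average, and Ovol1, Grhl1, Grhl2 and Ovol2 lie above theirs by 0.44 to 1.04. The epithelial mean itself differed by -1.19 between the groups, which shifts every gene upward.

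The genes most like each factor in profile were sought among all genes tested, by the root mean square difference between gene-centred log2 values over the 6 arrays. This measure picks genes whose difference between the groups is close to the factor's, so the differences and calls given here follow largely from the choice. For Grhl3 they were Fam83b (0.0623), Lypd2 (0.0847), Msln (0.0907) and the keratin gene Krt19 (0.108), which differed by -1.39, -1.40, -1.42 and -1.46, each past the threshold. For Ovol1 they were Stap2 (0.0455), the tight junction scaffold gene Tjp3 (0.0483), the syndecan gene Sdc4 (0.0492) and Mboat1 (0.0631), all past the threshold with differences of -0.74 to -0.69. For Grhl1 they were Tpd52 (0.0261), Tbc1d2 (0.0461), Hip1r (0.0525) and the catenin gene Ctnnd2 (0.054). For Grhl2 the nearest were Mpp7 (0.0823), Tmc4 (0.0853), Lypd6b (0.0876) and Adam28 (0.088), of which Tmc4 passed the threshold.

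A close match says little where a profile is flat. Within 0.1 of Ovol2, whose 6 values had an SD of 0.111, lay 2933 genes, so its nearest genes, Tmem14c, Pon1, Tmem9b and Prl3d3, are 4 of many. Within the same distance lay 3 genes for Grhl3, 10 for Grhl2, 30 for Ovol1 and 62 for Grhl1. Among the 5 themselves, Grhl1 and Ovol1 were nearest (0.113) and Grhl3 and Ovol2 farthest apart (0.661).

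Relatives of the 2 families did not pass. Tfcp2, Tfcp2l1 and Ubp1, which belong to the wider grainyhead family, differed by 0.15, -0.16 and 0.03, and Ovol3, the remaining ovo-like gene, by -0.02. Their adjusted p was 0.534 to 0.949 by limma, and the groups overlapped for all 4.

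Genes known as targets or partners of Grhl factors in mouse epithelia were next. Of 17 measured, 12 fell, none rose and 5 did not pass, with a median difference of -0.93. This list was chosen with results of these arrays known and holds several general epithelial genes, so its count does not bear on Grhl activity. The count was also 12 without control 2. Upk2, a uroplakin of the urothelial surface plaque, averaged 8.30 ± 0.07 in Klf5-deleted and 11.49 ± 0.28 in control bladders (SD, n = 3 each). Tjp3, a scaffold of tight junctions, fell by 0.74, the envelope gene Ppl by 1.17, and Tgm1, the transglutaminase that cross-links the cornified envelope, by 0.84 (adjusted p = 0.00585 by limma). Cdh1 and Cldn4, genes that Grhl2 sustains in mice, fell by 1.50 and 1.10. Lmo4, a partner of Grhl3, differed by 0.0033 (adjusted p = 0.993 by limma).

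In the list of cornification and barrier genes, 9 of 18 measured members fell and none rose, with a median of -0.45. Besides Sprr1a, Ivl and Ppl, the ceramide synthase gene Cers3, whose lipids seal the skin barrier, fell by 1.98 (adjusted p = 0.00383 by limma). The envelope gene Evpl fell by 0.54. Lor, a product of the differentiated epidermis, differed by -0.04 without passing. Krt1, another such product but of the skin list only, differed by -0.66 without passing.

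**Figure D4:**
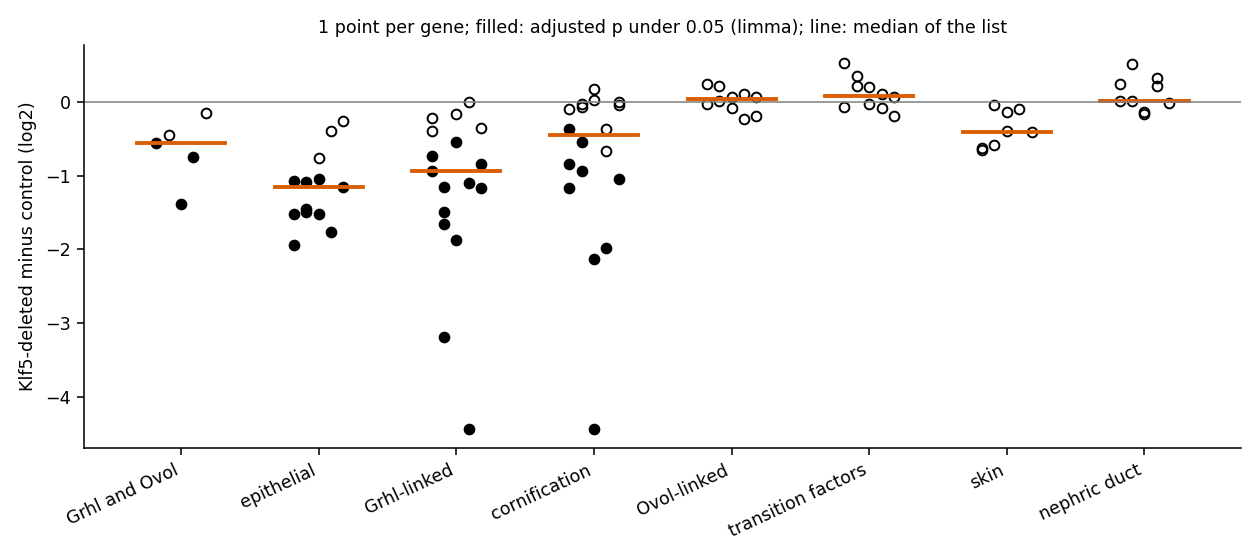
Difference between Klf5-deleted and control bladders (log2) for each gene of 8 groups; filled points had an adjusted p under 0.05 by limma and the orange line is the group's median. The median was -0.55 for the 5 Grhl and Ovol genes, -1.16 for general epithelial genes, -0.93 for Grhl-linked genes and 0.04 for Ovol-linked genes.

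Genes that Ovol factors are known to repress or oppose did not pass in either direction. None of the 10 measured members passed, with a median of 0.04 against -0.00993 for all genes. Zeb1 and Cdh2 read higher on all 3 Klf5-deleted arrays than on any control array. Zeb1 differed by 0.11 only (adjusted p = 0.526 by limma) and Cdh2 by 0.25 (adjusted p = 0.29 by limma). The share of all genes that read higher without overlap was not computed. Zeb2 differed by 0.06. Myc and Id2, which Ovol1 represses in mice, differed by -0.23 and 0.07. The other members were Twist1 at 0.22, Snai2 at -0.20, Vim at -0.09, Tgfbr2 at -0.02 and Ctnnb1 at 0.02. Of the 10 factors of mesenchymal transition, which share 4 genes with that list, none passed either, with a median of 0.09. Foxc2 and Prrx1, factors of mesenchyme, came closest at 0.53 and 0.36 (adjusted p = 0.0599 and 0.164 by limma). The arrays do not separate the RNA of mesenchyme from that of epithelium for these genes.

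Other epithelia in which Grhl and Ovol genes are active were checked by their markers. Of 8 skin genes none passed, all 8 differences were negative with a median of -0.40, and their mean was 8.13 to 8.40 in Klf5-deleted and 8.36 to 9.03 in control bladders. The highest was control 2, where Krt10 read 9.25 and Krt1 9.20. Of 9 nephric duct genes none passed, and their mean was 8.10 to 8.28 in Klf5-deleted and 8.02 to 8.14 in control bladders. Of 8 intestinal genes none passed, with a mean of 7.04 to 7.23 in Klf5-deleted and 6.87 to 7.42 in control bladders. Of 6 mesothelial genes 2 fell and 1 rose, with a mean of 9.47 to 9.61 in Klf5-deleted and 9.75 to 9.99 in control bladders; the falls were Msln and Krt19, both also among the genes nearest to Grhl3, and the rise was Wt1. The 5 placental genes, of which none passed, had a mean of 5.29 to 8.54 in Klf5-deleted and 5.28 to 10.59 in control bladders. Without control 2 the intestinal gene Fabp1, named after its value was seen, rose by 0.56 (adjusted p = 0.0215 by limma). The means of the mesothelial list did not overlap between the groups, while those of the skin, intestinal and nephric duct lists did. Yet only 3 of the 6 mesothelial differences were negative, with a median of 0.0225, and Krt19 is also 1 of the 13 general epithelial genes. The lower mesothelial mean therefore does not show a shared fall of the list. The part of RNA from these tissues in the factors' values was not tested.

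The remaining cell types held 1 gene past the threshold. It was Synpo2, which fell by 0.38. All 11 smooth muscle genes of its list had negative differences, with a median of -0.285. The mean of that list was 11.75 to 11.95 in Klf5-deleted and 11.97 to 12.24 in control bladders, without overlap. Without control 2 Synpo2 did not pass (adjusted p = 0.0756 by limma). No gene passed among 11 mesenchymal, 9 endothelial, 9 leukocyte, 7 neuronal and glial, 9 skeletal muscle and 5 erythroid genes. Their medians were -0.05, -0.14, -0.15, 0.03, 0.74 and 0.25. The skeletal muscle mean was 9.27 to 10.34 in Klf5-deleted and 8.71 to 9.52 in control bladders, and its part in the results was not tested.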

How the data were processed

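RNA of 6 samples was read on Affymetrix Mouse Gene 1.0 ST arrays, 1 per sample. Log2 expression values made with RMA were deposited by the authors, per the submitters' processing notes; its version is not given in the sources used here, and neither are a genome build or probe annotation. The log2 scale was inferred from the values (3.24 to 14.6). No count or depth exists for arrays, and the number of arrays limits the precision.

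Of 35557 features, 21789 had a single symbol, 1621 several, and 12147 were unnamed here. The feature with the highest mean stood for a gene, which left 19938 genes, of which 19856 matched RefSeq (GRCm38.p6) by Entrez identifier. Klf5-deleted was compared with control in limma 3.58.1 under R 4.3.3 (lmFit, then eBayes with no trend; two-sided tests). P-values were adjusted over all genes tested by the Benjamini-Hochberg method, and 0.05 was the threshold. Pairs of the 5 genes were compared by exact permutation of arrays. The procedure was tested on simulated data. The labels do not say whether pools came from separate litters, so the p-values speak only for variation among these pools.

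The 5 genes, the gene lists and the tests were chosen with earlier results of these data known. Genes named besides the 5 and Klf5 were all members of the family and Ovol-linked lists, up to 6 genes of each other list by smallest p, and the 4 genes of most similar profile per factor; Epcam, Cdh1, Cldn4 and Lmo4 were chosen after their values were seen. Alternatives were another prior, feature rule, dim filter, 4 scalings, a replicate block and each array left out; list counts without control 2 were added after seeing the data.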

Additional observations from a re-analysis of the deposited data

How the results depend on the processing

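Over 15 alternatives, the directions of all 5 factors held except with arrays centred on the 13 epithelial genes, and Grhl3, Ovol1 and Grhl1 stayed past the threshold with a trend or robust prior, the mean of all features, the dimmest 25% left out, repeated quantile normalization, and median or housekeeping centring. Epithelial centring adds 1.19 to every difference by construction and gave all genes 1 common SE of 0.207, so its calls carry no weight: Grhl1 came to 0.64, Grhl2 to 0.75, Ovol1 to 0.44, Ovol2 to 1.04 and Klf5 to 0.60, Grhl3 to -0.19 (adjusted p = 0.362 by limma), with 0 of the 5 lower and 4 higher, and 41 genes lower and 19720 higher. Same-numbered samples barely deviated together (correlations 0.00915, 0.0313 and 0.0787; 5 of 6 samples were closest to their own number). Whether a number marks a shared litter or day is not given by the labels. With the replicate block, 1 of the 5 (Grhl3, adjusted p = 0.0433 by limma) and 105 genes were lower and 5 higher; Grhl1 stayed at -0.55 (adjusted p = 0.0973) and Ovol1 at -0.75 (adjusted p = 0.0594). The genes higher numbered 116 with median and 219 with housekeeping centring, against 77. Leaving out 1 array gave differences of -0.59 to -0.50 for Grhl1, 2 to 3 of the 5 lower and 0 higher, and 124 to 285 genes lower (318 with all arrays) and 17 to 64 higher. The lowest gene counts, 141 in all, came without Klf5-deleted 1. The gap between Grhl1 and Grhl2 ran from -0.24 to 0.032, its highest value without control 1. Where a call was lost, the cause was not tested. No feature could be called above background, since scanner files were not used here.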

Other observations

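Planar cell polarity genes, which act with Grhl3 in neural tube closure in mice, held no member past the threshold among 12 measured. Their median difference was 0.01. Vangl1, a core polarity protein, differed by -0.24 (adjusted p = 0.163 by limma), and Fzd3, a polarity receptor, by 0.35 (adjusted p = 0.103 by limma). Celsr1 and Ptk7 differed by 0.10 and 0.08, and Prickle2 by -0.19. Vangl1 and Prickle2 read lower in Klf5-deleted bladders without overlap, as did 11.8% of all genes. Fzd3 and Celsr1 read higher without overlap, and the share of all genes that did so was not computed.

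Of 14 other regulators of epithelia measured, Klf5 included, 7 fell and none rose, with a median of -0.71. The 7 include Klf5 itself, and over all genes 1.59% fell. The splicing regulator genes Esrp1 and Esrp2, which mark the epithelial state in the same programmes as Grhl2 and Ovol2, fell by 1.16 and 1.25 (adjusted p = 0.00882 and 0.00244 by limma). The list was chosen with results of these arrays known. None of the 12 housekeeping genes passed, with a median difference of -0.01 and a mean of -0.0875.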
